A study of Mus musculus with 2 samples.

Results

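Type I interferon response genes are switched on in a cell when interferon alpha or beta binds its receptor. A set of 35 such genes, named by symbol for this purpose, was followed on mouse gene expression arrays, and 33 of them were found among the 20651 genes that the array probes could be matched to. The probes carry RefSeq accessions, and a probe was taken for a gene when its accession is listed for that symbol in the RefSeq annotation. For 2 of the set, Mx1 and Mx2, no probe was matched through this annotation, and they are not analysed here. This does not show that the array lacks probes for them. The 33 matched genes had 44 probes, and 11 genes had more than 1.

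RNA came from 1 culture labelled knockout, of genotype SIRT1flox/flox-CD4-Cre, and 1 culture labelled wild-type, each hybridised to 1 single-colour (Cy3) Agilent array. The knockout mice carry Sirt1 alleles flanked by loxP sites and a Cre recombinase driven by Cd4, and Sirt1 encodes an NAD-dependent protein deacetylase. Per the labels, mouse spleens and lymph nodes gave the naive T cells of both cultures, gated as CD4+TCR+CD62Lhi CD44lo, and both cultures were stimulated with antibodies to CD3 and to CD28, at 2 µg/ml each, in the presence of human IL-2 at 100 U/ml. TGFβ1 at 2 ng/ml and IL-4 at 10 ng/ml were added to steer the cells towards the T helper 9 (TH9) type, and culture lasted 5 days per the sample descriptions. The labels give no strain, age or sex of the mice, nor how many animals stand behind a culture. With 1 array per genotype there is no replicate check, no test was possible and no p-value is given.

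In this pathway, interferon binds the receptor chains IFNAR1 and IFNAR2, the kinases TYK2 and JAK1 become active, and STAT2 is phosphorylated and acts with IRF9 in a complex named ISGF3. ISGF3 binds a DNA motif, the interferon-stimulated response element, in the promoters of its target genes. The products sense foreign nucleic acids, degrade or edit RNA, block translation and virus entry, and restrain the response itself. In T cells type I interferon is known to limit proliferation and to bear on the choice of helper lineage.

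Each value below is the processed signal of a probe, a background-subtracted spot intensity. Differences are knockout minus wild-type, on the log2 scale, after each array's log2 signals were set against their own 75th percentile, which lay at a signal of 520 on the knockout array and 544 on the wild-type array. The scaling adds 0.07 to a log2 ratio of the plain signals. The error printed after ± is the scanner software's own error of the spots, carried to the log2 difference. It covers neither animals nor cultures. Signals of different probes depend on the probe and are not set against each other. A gene with several probes is represented by its brightest probe.

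On the arrays as a whole, 65.3% of gene spots on the knockout array and 57.1% on the wild-type array were well above background, the scanner software's call of a reliable signal. Sirt1 itself gave 2920 on the knockout array and 3240 on the wild-type array (-0.08 ± 0.20). The labels do not say which exons are flanked, so this probe is no check of the genotype label. The probe of Il9, whose product names the TH9 type, stayed at background level with 7.36 on the knockout array and 5.48 on the wild-type array, so the labelled cell type lacks its defining marker here. The gate in the labels selects naive CD4 T cells, yet markers of cells it would remove gave strong signals, such as Siglech of plasmacytoid dendritic cells (67500 on the knockout array and 74900 on the wild-type array), Cd79b of B cells (28400 on the knockout array and 32000 on the wild-type array) and S100a9 of neutrophils (89000 on the knockout array and 92000 on the wild-type array). Other markers of these cell types were dim, such as Cd79a of B cells (101 on the knockout array and 240 on the wild-type array) and Klk1 of plasmacytoid dendritic cells (139 on the knockout array and 107 on the wild-type array). T cell markers gave signal too, with 7 measured on both arrays. The brightest were Lck (28200 on the knockout array and 25100 on the wild-type array) and Cd2 (18600 on the knockout array and 19500 on the wild-type array). With Il9 at background level and bright markers of other cell types, whether the hybridised RNA is that of the labelled TH9 cultures is in doubt. Knockout culture and wild-type culture stand below for what the labels say.

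The interferon response genes gave signal on both arrays and differed little between them. Of the 33 genes, 32 were well above background on both arrays, and the exception was Oas3. Of all 20651 matched genes, 12958 were well above background on both arrays. No member was at least 2-fold higher or lower in the knockout, where 7.59% of the 12958 genes well above background on both arrays were. By sign, 14 members were higher and 18 lower in the knockout, and 49.6% of all genes were lower by any amount. The median difference was -0.07 over the members and 0.00 over all genes, and the members ran from -0.99 for Ifit1 to 0.56 for Ifih1. The quartiles of the members were -0.28 and 0.09, against -0.30 and 0.28 for all genes. Most members are bright, and bright genes as a whole differed less between the arrays. Of the 6221 genes at or above the 75th percentile on both arrays, 168 (2.7%) were at least 2-fold higher or lower, with a median of 0.05 and quartiles of -0.16 and 0.25. The 23 members at that brightness had a median of -0.13 and quartiles of -0.31 and 0.06, a spread close to that of the bright genes. Of these 23, 9 were higher and 14 lower in the knockout, beside 3527 higher and 2694 lower of the 6221 genes.

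**Figure D1:**
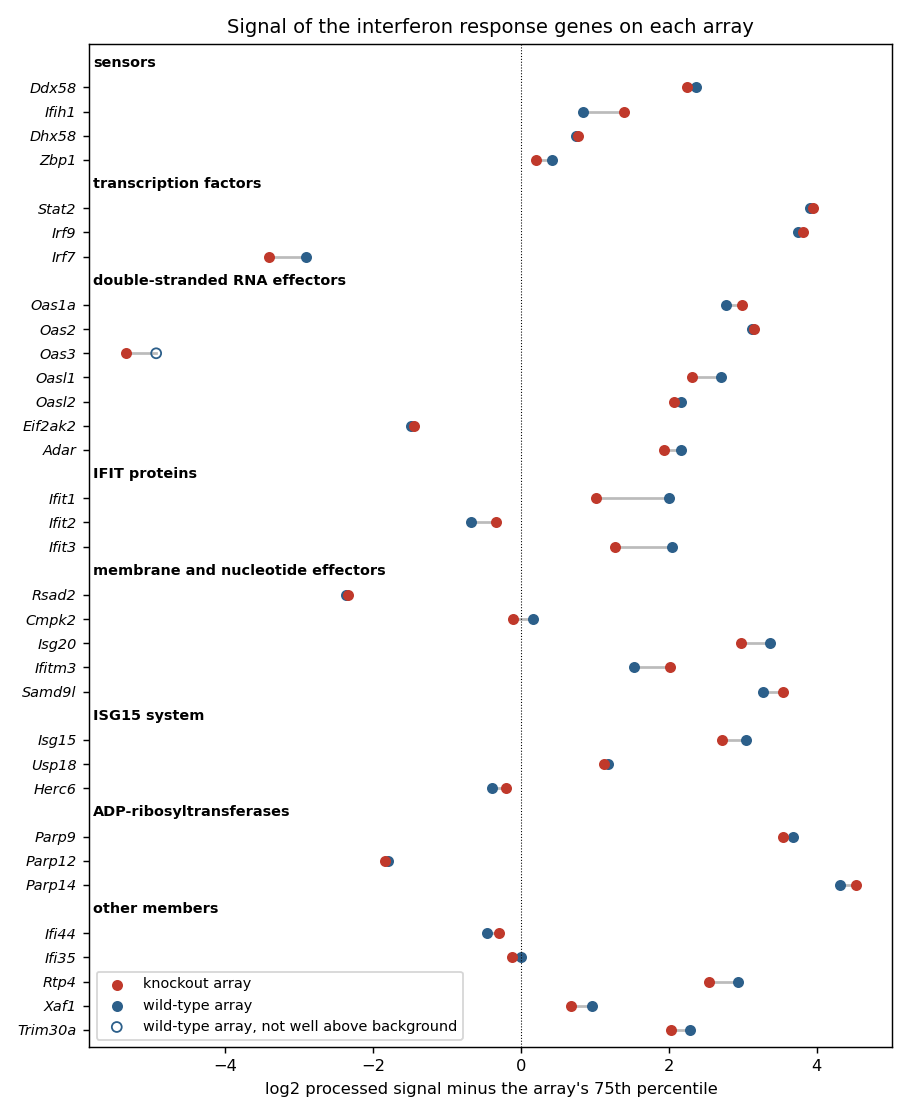
Log2 processed signal minus the array's 75th percentile for each of the 33 matched genes, in the knockout culture (red) and the wild-type culture (blue), 1 array each, grouped by role. The points of most genes nearly coincide, Ifit1 and Ifit3 lie apart with the knockout lower, and the open circle marks Oas3, not well above background on the wild-type array.

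A finer reading sets each difference against its own scanner error. There were 12 members lower in the knockout by more than that error, where 30.6% of all genes were, and 6 higher by more than it, where 29.9% of all genes were. As shares of the 32 measured members these are 37.5% and 18.8%. The remaining 14 members lay within the error, as did 5108 of the 12958 genes. Of the 23 members at or above the 75th percentile on both arrays, 10 were lower and 5 higher by more than the error. Of the 6221 genes at that brightness, 1328 were lower and 1839 higher by more than it. The split of all 32 members rested on the scaling and the background correction. With each array centred on its median, 5 members were lower and 14 higher by more than the error, beside 19.0% and 47.8% of all genes. With normexp, 6 were lower and 9 higher, beside 41.7% and 31.7% of all genes. With a 1.5-fold limit, 2 members were lower in the knockout, Ifit1 and Ifit3, where 12.0% of all genes were at least 1.5-fold lower. With the same limit 0 members were higher by their brightest probe, where 11.0% of all genes were. The other probe of Samd9l, nearly as bright, was 1.52-fold higher (0.60 ± 0.20). At or above the 75th percentile on both arrays, 2 of 23 members were lower and 0 higher, beside 290 and 383 of 6221 genes. These shares describe a single pair of arrays and carry no test.

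**Figure D2:**
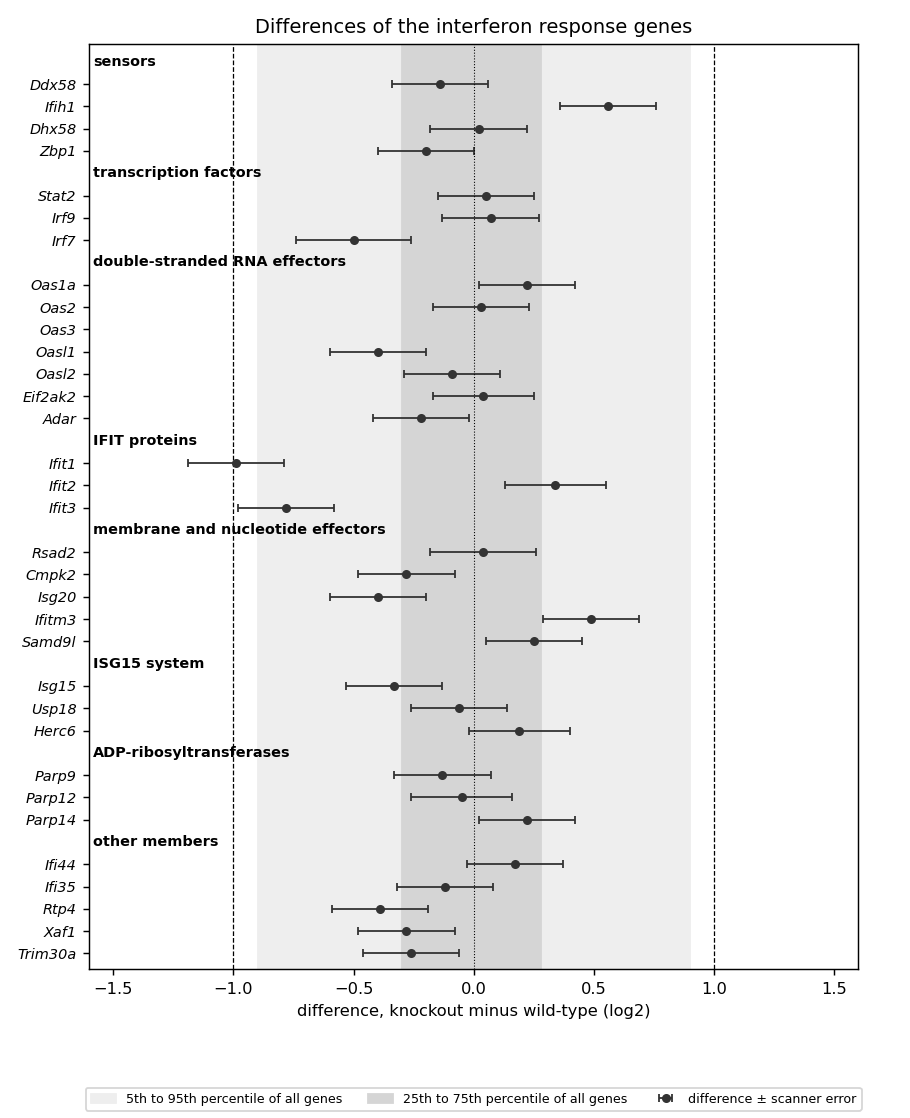
Difference of each member (knockout minus wild-type, log2) with the scanner error as the bar, for the 32 genes well above background on both arrays. Dashed lines mark 2-fold, and the dark and light bands hold the 25th to 75th percentile (-0.30 to 0.28) and the 5th to 95th percentile (-0.90 to 0.90) of all 12958 genes. Ifit1 alone lies outside the light band, and Oas3 has no point.

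Among the IFIT genes, Ifit1 and Ifit3 held the lowest differences of the set. IFIT proteins bind viral RNA, and IFIT1 blocks translation of RNA whose cap lacks a methyl group. Ifit1 gave a signal of 1050 in the knockout culture and 2180 in the wild-type culture, a 1.98-fold lower value in the knockout (-0.99 ± 0.20). Ifit3 gave 1250 in the knockout culture and 2250 in the wild-type culture (-0.78 ± 0.20, 1.72-fold lower). Both were lower in the knockout by several times their scanner error. Ifit2, whose protein is linked to cell death, ran the other way, at 415 in the knockout culture and 343 in the wild-type culture (0.34 ± 0.21). The 3 genes lie close together on mouse chromosome 19, with Ifit2 and Ifit3 next to each other. Ifit3b, a close copy of Ifit3 from the same cluster and not among the 35, gave 331 in the knockout culture and 543 in the wild-type culture (-0.65 ± 0.20). Since the copies are nearly identical, RNA of either can bind the other's probe, and the pair is uncertain as separate measurements. Without Ifit1 and Ifit3 the median of the other 30 measured members was -0.05.

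The promoters of Ifit1 and Ifit3 are shown because these genes have the lowest differences, and that of Ifih1 because it has the highest. Each is the 250 bases before the annotated start, 5′ to 3′ on the gene's own strand, from the RefSeq promoter table of build GRCm38.p6. Capitals mark matches to the core of the interferon-stimulated response element, 2 copies of GAAA with any 2 bases between them. Both strands were searched, so 2 copies of TTTC at that spacing are the same motif on the other strand, and overlapping matches were counted. Ifit1 lies on the plus strand at chr19:34640639-34640888, Ifit3 on the plus strand at chr19:34583279-34583528, and Ifih1 on the minus strand at chr2:62646256-62646505.
Ifit1: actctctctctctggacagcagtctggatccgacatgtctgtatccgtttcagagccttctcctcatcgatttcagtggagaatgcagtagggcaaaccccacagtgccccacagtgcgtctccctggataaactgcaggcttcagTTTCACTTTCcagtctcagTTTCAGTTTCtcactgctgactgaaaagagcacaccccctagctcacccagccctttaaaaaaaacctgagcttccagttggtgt
Ifit3: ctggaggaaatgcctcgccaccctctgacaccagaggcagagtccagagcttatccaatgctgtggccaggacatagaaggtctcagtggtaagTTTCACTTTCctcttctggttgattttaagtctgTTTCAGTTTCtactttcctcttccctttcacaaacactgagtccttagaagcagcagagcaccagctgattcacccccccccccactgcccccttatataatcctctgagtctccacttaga
Ifih1: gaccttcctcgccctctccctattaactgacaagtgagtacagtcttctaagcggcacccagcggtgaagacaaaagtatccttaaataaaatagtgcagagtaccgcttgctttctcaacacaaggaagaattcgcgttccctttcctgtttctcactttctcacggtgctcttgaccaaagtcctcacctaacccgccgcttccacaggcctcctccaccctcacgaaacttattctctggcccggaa

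The Ifit1 and Ifit3 windows hold the same pair of matches in the same order, TTTCACTTTC and then TTTCAGTTTC. In Ifit1 they begin 104 and 85 bases before the start, 19 bases apart, and in Ifit3 they begin 156 and 122 bases before it, 34 bases apart. The Ifih1 window holds no match, which says only that these letters are absent from it. Another 6 members hold a match, shown with up to 10 bases on either side because they let the motif be read beside its differences.
Isg15: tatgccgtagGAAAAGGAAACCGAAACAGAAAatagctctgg
Oas3: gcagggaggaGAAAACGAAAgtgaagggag
Oas1a: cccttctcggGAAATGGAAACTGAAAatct
Trim30a: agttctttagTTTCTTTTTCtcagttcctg
Stat2: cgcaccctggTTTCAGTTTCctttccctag
Rsad2: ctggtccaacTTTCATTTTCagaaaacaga

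These windows lie at chr4:156200865-156200906 (Isg15), chr5:120777715-120777744 (Oas3), chr5:120907526-120907555 (Oas1a), chr7:104465210-104465239 (Trim30a), chr10:128270266-128270295 (Stat2) and chr12:26456553-26456582 (Rsad2), on the minus strand except for Stat2. In Isg15 there are 3 overlapping matches and in Oas1a there are 2. Stat2 holds the same 10 bases as the second match of Ifit1 and Ifit3. Promoter entries were present for 26 of the 33 genes, and a gene with several entries, such as Trim30a, was counted if any of them held a match. Of these 26 genes, 8 (30.8%) held a match in the 250 bases, beside 18 of 53 (34.0%) other interferon-stimulated genes and 936 of 27025 genes (3.46%) in the whole table. The 7 measured members with a match had differences from -0.99 to 0.22 with a median of -0.26, and the 18 with an entry and no match had differences from -0.50 to 0.56 with a median of -0.07. The 2 ranges overlap.

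The sensors of foreign nucleic acid were split. Ifih1 encodes MDA5, which recognises long double-stranded RNA, and gave 1370 in the knockout culture and 971 in the wild-type culture. Its difference of 0.56 ± 0.20 (1.48-fold higher) was the highest of the members, each taken by its brightest probe. A dimmer Ifih1 probe was well above background on the knockout array only, so it offers no second measurement. Ddx58, encoding RIG-I, the sensor of RNA ends with a triphosphate, gave 2450 in the knockout culture and 2820 in the wild-type culture (-0.14 ± 0.20). Dhx58, encoding LGP2, which modulates both sensors, gave 887 in the knockout culture and 914 in the wild-type culture (0.02 ± 0.20). Zbp1, a sensor of Z-form nucleic acid that can start necroptosis, gave 603 in the knockout culture and 727 in the wild-type culture (-0.20 ± 0.20). Of these 4 genes, Ifih1 was the one well outside its scanner error.

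Among the transcription factors of the response, Stat2 and Irf9 had nearly equal signals. Stat2 gave 8050 in the knockout culture and 8150 in the wild-type culture (0.05 ± 0.20). Irf9, the DNA-binding subunit, gave 7270 in the knockout culture and 7260 in the wild-type culture (0.07 ± 0.20). Irf7, which drives interferon alpha genes and is itself induced by interferon, was dim on both arrays, at 48.9 in the knockout culture and 72.4 in the wild-type culture (-0.50 ± 0.24). The lowest signals well above background were 9.76 on the knockout array and 24.6 on the wild-type array. The size of the Irf7 difference depended on the processing, from -0.94 with another background correction (normexp) to -0.31 with median centring, always lower in the knockout.

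Genes whose products act on double-stranded RNA differed in both directions by small amounts. The oligoadenylate synthetases make a signal that activates RNase L, which degrades RNA. Oas1a gave 4120 in the knockout culture and 3710 in the wild-type culture (0.22 ± 0.20), and Oas2 gave 4610 in the knockout culture and 4730 in the wild-type culture (0.03 ± 0.20). Oas1a belongs to a cluster of close copies, so its probes may bind RNA of the others. Oas3 gave 12.8 in the knockout culture, well above background there, and 17.9 in the wild-type culture, not well above background there, and no fold is given because the lowest reliable wild-type signal is brighter than the knockout signal. Oasl1, which in mouse restrains translation of Irf7 RNA, gave 2580 in the knockout culture and 3560 in the wild-type culture (-0.40 ± 0.20). Its neighbour Oasl2, an active synthetase in mouse, gave 2190 in the knockout culture and 2440 in the wild-type culture (-0.09 ± 0.20). Eif2ak2 encodes PKR, the kinase that halts translation on meeting double-stranded RNA, and gave 191 in the knockout culture and 194 in the wild-type culture (0.04 ± 0.21). Adar, whose enzyme edits adenosine to inosine and keeps self RNA from the sensors, gave 2000 in the knockout culture and 2440 in the wild-type culture (-0.22 ± 0.20). Of the 6 genes measured on both arrays, 3 were higher and 3 lower in the knockout.

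The membrane and nucleotide effectors were also mixed. Ifitm3, a membrane protein that hinders virus fusion, was spotted 10 times on each array. Its spots ran from 2040 to 2160 in the knockout culture and from 1520 to 1600 in the wild-type culture, so the spots of the 2 arrays did not overlap. The difference was 0.49 ± 0.20, and the spots of an array had an SD of 0.026 (knockout) and 0.0278 (wild-type) on the log2 scale. Over 217 probes with repeated spots, the median spot SD was 0.0322 on the knockout array and 0.0384 on the wild-type array. The spread over spots of the same RNA was therefore smaller than the scanner error, and neither measures the spread between cultures.

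Samd9l, a restriction factor of poxviruses that also limits growth of blood cells, gave 6030 in the knockout culture and 5300 in the wild-type culture (0.25 ± 0.20). Isg20, an RNA exonuclease, gave 4070 in the knockout culture and 5610 in the wild-type culture (-0.40 ± 0.20). Cmpk2 encodes a mitochondrial nucleotide kinase and gave 484 in the knockout culture and 613 in the wild-type culture (-0.28 ± 0.20). Its neighbour Rsad2, which encodes viperin, an enzyme that makes a chain-terminating nucleotide, was level at 103 in the knockout culture and 105 in the wild-type culture (0.04 ± 0.22).

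In the ISG15 system, the modifier itself was lower in the knockout. ISG15 is a ubiquitin-like protein attached to other proteins. Isg15 gave 3430 in the knockout culture and 4520 in the wild-type culture (-0.33 ± 0.20). Usp18, which removes ISG15 and blocks signalling at IFNAR2, gave 1130 in the knockout culture and 1230 in the wild-type culture (-0.06 ± 0.20). Herc6, the main ISG15 ligase in mouse, gave 453 in the knockout culture and 415 in the wild-type culture (0.19 ± 0.21). The eraser and the ligase lay within their scanner errors.

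The ADP-ribosyltransferases of the response lay close to level. Parp14, whose enzyme also assists STAT6, the factor that IL-4 activates, gave 12000 in the knockout culture and 10800 in the wild-type culture (0.22 ± 0.20). Parp9, which works in a pair with the ubiquitin ligase DTX3L, gave 6080 in the knockout culture and 6980 in the wild-type culture (-0.13 ± 0.20). Parp12, which acts against RNA viruses, gave 145 in the knockout culture and 157 in the wild-type culture (-0.05 ± 0.21). Of the other 5 members, 4 were lower in the knockout. Rtp4, a chaperone of receptors that also restrains interferon responses in mouse, gave 3040 in the knockout culture and 4160 in the wild-type culture (-0.39 ± 0.20). Xaf1, an antagonist of the caspase inhibitor XIAP, gave 834 in the knockout culture and 1060 in the wild-type culture (-0.28 ± 0.20). Trim30a, a mouse protein that dampens NF-kB signalling, gave 2120 in the knockout culture and 2650 in the wild-type culture (-0.26 ± 0.20). These 3 lay outside their scanner errors. Ifi35 gave 480 in the knockout culture and 544 in the wild-type culture (-0.12 ± 0.20). Ifi44 gave 425 in the knockout culture and 395 in the wild-type culture (0.17 ± 0.20), within its error like Ifi35.

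Genes read by a pair of probes allowed a check inside each array. In 9 genes both probes were well above background on both arrays, and in 8 of them the probes gave the same sign. Probe pairs of genes outside the set were not counted. Isg15 had -0.33 by the brighter probe and -0.53 by the other, Isg20 had -0.40 and -0.30, Adar had -0.22 and -0.37, and Zbp1 had -0.20 and -0.43. The lower values of these genes in the knockout thus stood in both probes, which share the RNA and the scaling. On the higher side Samd9l had 0.25 and 0.60, Oas1a had 0.22 and 0.16, and Herc6 had 0.19 by each probe. The exception was Xaf1, with -0.28 by the brighter probe and 0.07 by the other. The widest gap between probes of a gene was 0.35, in Xaf1 and Samd9l, wider than the scanner error of 0.20. Ifit1 and Ifit3 have a single probe each, so their values have no such check.

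**Figure D3:**
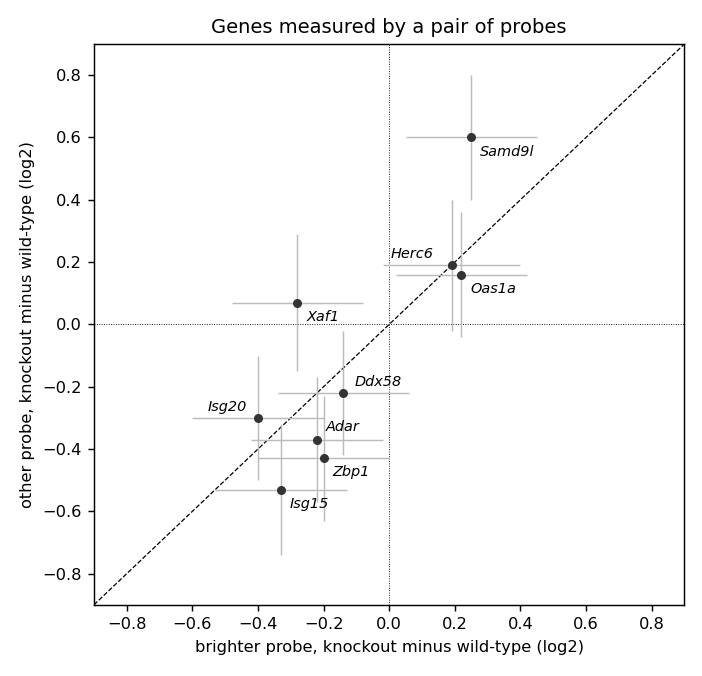
Difference (knockout minus wild-type, log2) by the other probe against that by the brighter probe, for the 9 genes with a pair of probes well above background on both arrays. Bars are scanner errors and the dashed line marks equality. The points of 8 genes lie in the quadrants of equal sign, and Xaf1 lies outside them.

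Upstream of the response, most interferon ligand genes gave little or no signal. Of 18 ligand genes looked for, 14 had a probe, and 7 of these were not well above background on either array, while another 3 were well above background on the knockout array only. Among the 7 was Ifnb1, the gene of interferon beta, at 2.08 in the knockout culture and 7.91 in the wild-type culture. Of all 20651 matched genes, 5782 were well above background on neither array, 1768 on the knockout array only and 143 on the wild-type array only. The lowest signal well above background was 9.76 on the knockout array and 24.6 on the wild-type array, so a call on the knockout array only does not show a higher signal there. The 4 ligand genes measured on both arrays went in different directions. Ifna11 gave 982 in the knockout culture and 376 in the wild-type culture (1.45 ± 0.21), the only one of the 4 with a higher value in the knockout. Ifna14 gave 44.8 in the knockout culture and 110 in the wild-type culture (-1.23 ± 0.22), and Ifnab gave 34.2 in the knockout culture and 78.3 in the wild-type culture (-1.13 ± 0.24). In the authors' deposited value table Ifnab had -0.96, short of 2-fold, and Ifna14 had -1.08. Ifna5 gave 29.8 in the knockout culture and 41.0 in the wild-type culture (-0.40 ± 0.30). The interferon alpha genes are close copies, so a probe of 1 may bind RNA of others, and 3 of these 4 signals are dim.

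The receptor and its kinases lay within 2-fold. Ifnar1 gave 1670 in the knockout culture and 1680 in the wild-type culture (0.06 ± 0.20), and Ifnar2 gave 1430 in the knockout culture and 1320 in the wild-type culture (0.18 ± 0.20). Jak1 gave 11500 in the knockout culture and 9970 in the wild-type culture (0.27 ± 0.20), and Tyk2 gave 103 in the knockout culture and 124 in the wild-type culture (-0.20 ± 0.21). Thus Jak1 alone of these 4 exceeded its scanner error, where 29.9% of all genes were higher and 30.6% lower by more than theirs. Over all 32 upstream genes measured on both arrays, 16 were higher and 16 lower in the knockout, with a median of 0.01. Of these, 1 was at least 2-fold higher, where 3.95% of all genes were, and 2 were at least 2-fold lower, where 3.63% were. The 8 largest differences outside the named core were the 3 ligands past 2-fold above, Tlr7 (-0.77 ± 0.20) and Tlr3 (0.67 ± 0.30), both endosomal RNA sensors, Cgas (0.64 ± 0.21), the sensor of cytosolic DNA, and Pias4 (-0.76 ± 0.27) and Pias1 (-0.56 ± 0.20), inhibitors of STAT proteins.

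A wider list of 64 other interferon-stimulated genes, of which 58 had a probe and 52 were measured on both arrays, was evenly split. It had 26 genes higher and 26 lower in the knockout, 1 at least 2-fold higher, where 3.95% of all genes were, 1 at least 2-fold lower, where 3.63% of all genes were, and a median of 0.00. Ifi204, a DNA sensor of the p200 family, gave 7800 in the knockout culture and 3960 in the wild-type culture (1.04 ± 0.20). Sp100, a component of nuclear bodies, was dim at 28.8 in the knockout culture and 66.5 in the wild-type culture (-1.14 ± 0.25), and had -0.96, short of 2-fold, in the authors' deposited value table. The next largest differences were Tent5a (0.99 ± 0.20), Tdrd7 (0.83 ± 0.20), Slfn1 (-0.82 ± 0.24) and Dtx3l (-0.77 ± 0.20).

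Markers of several other cell types differed between the arrays, and those of others were nearly level. Each list is given by its counts, its median and the sum of its signals, and a sum follows the brightest probes of the list. Macrophage and monocyte markers were higher in the knockout in 7 of 7 genes (of 8 listed), with a median of 0.90, differences from 0.45 to 1.39 and a summed signal of 21976 in the knockout culture and 11440 in the wild-type culture. Their brightest were Csf1r (0.90 ± 0.20) and Vcam1 (1.35 ± 0.20). Dendritic cell markers were higher in 5 of 6 genes with a median of 0.52, and their signals summed to 2245 in the knockout culture and 1812 in the wild-type culture. Of the brightest pair, Itgax was higher (0.36 ± 0.20) and Flt3 lower (-0.28 ± 0.20).

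NK and CD8 T cell markers were higher in 6 of 7 genes with a median of 0.40, and summed to 33354 in the knockout culture and 15914 in the wild-type culture. That sum rested on Klra1, an NK cell receptor gene, at 24700 in the knockout culture and 8790 in the wild-type culture (1.56 ± 0.20). Without it the other 6 summed to 8654 in the knockout culture and 7124 in the wild-type culture, with Cd8a at 0.50 ± 0.20. Neutrophil and mast cell markers were higher in 5 of 5 measured genes (of 6 listed) with a median of 0.65, while their sums were close, at 124969 in the knockout culture and 122198 in the wild-type culture. The neutrophil genes S100a9 (0.02 ± 0.20) and S100a8 (0.29 ± 0.20) differed least, and the mast cell genes Cpa3 (1.72 ± 0.21), Fcer1a (1.49 ± 0.25) and Kit (0.65 ± 0.22) held the larger differences.

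B cell markers were lower in the knockout in 8 of 8 genes with a median of -0.33, and summed to 77883 in the knockout culture and 97756 in the wild-type culture. Their brightest were Ms4a1 (-0.42 ± 0.20) and Cd79b (-0.11 ± 0.20). Plasmacytoid dendritic cells are the main makers of interferon alpha. Their 8 markers had a median of 0.09 with 5 higher and 3 lower. Of the 8 markers, 6 lay within the scanner error, where 5108 of all 12958 genes did. The 8 markers summed to 109562 in the knockout culture and 118256 in the wild-type culture, with Siglech at -0.08 ± 0.20 and Spib at -0.07 ± 0.20. The 7 measured T cell markers had a median of 0.00, ran from -1.13 to 0.23, and summed to 66310 in the knockout culture and 69350 in the wild-type culture. The brightest, Lck (0.23 ± 0.20) and Cd2 (0.00 ± 0.20), carry much of that sum. Cd3e and Cd3g, subunits of the T cell receptor complex, were lower in the knockout. Cd3e gave 1020 in the knockout culture and 2330 in the wild-type culture (-1.13 ± 0.20), and Cd3g gave 5650 in the knockout culture and 9700 in the wild-type culture (-0.71 ± 0.20). Of the TH9 markers other than Il9, Batf was level (0.02 ± 0.20), Il4ra was higher (0.24 ± 0.20), Irf4 was lower (-0.33 ± 0.21) and Spi1 was well above background on the knockout array only. The only markers below background on both arrays were Il9 and Ms4a2. The part of these cell types in the interferon response values was not tested, and in such bulk RNA fewer cells of a type and less RNA per cell cannot be told apart.

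**Figure D4:**
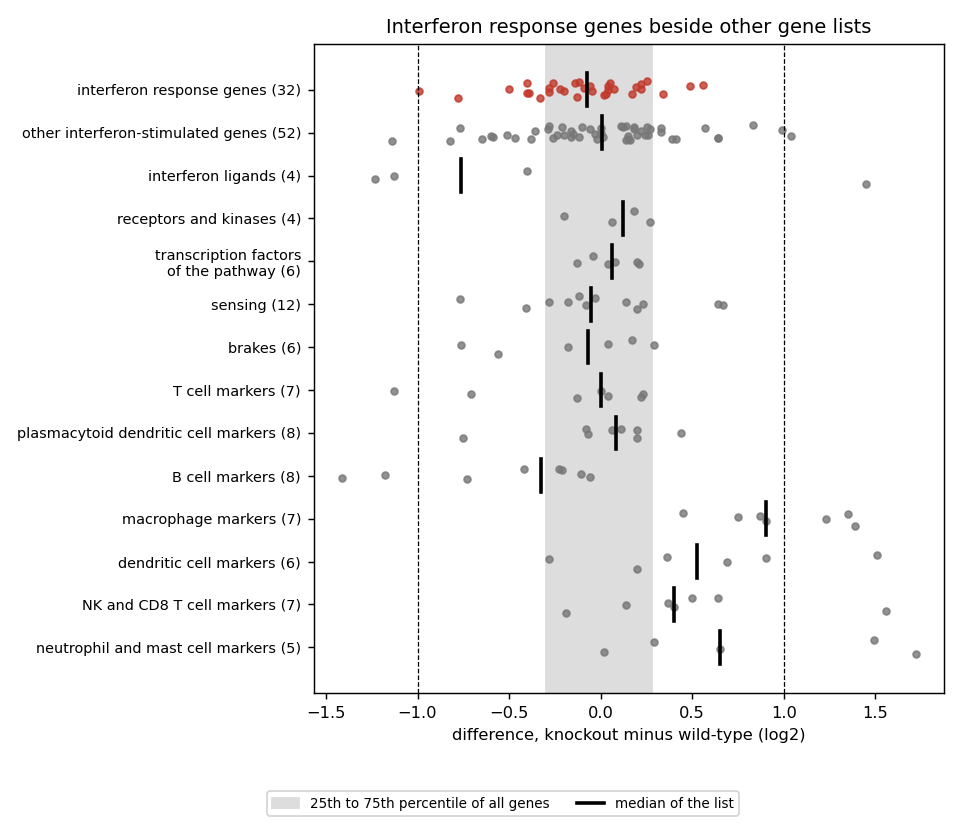
Difference (knockout minus wild-type, log2) of each gene well above background on both arrays, for the 32 interferon response genes (red), other interferon-stimulated genes, upstream genes by role and cell type markers, with the number of genes in brackets. Vertical ticks are list medians, dashed lines mark 2-fold and the band is the 25th to 75th percentile of all genes. The interferon response genes centre on -0.07 with none past 2-fold, while macrophage markers centre on 0.90 and plasmacytoid dendritic cell markers on 0.09.

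The members furthest from 0 kept their direction under every way of processing the signals that was tried. Ifit1 ranged from -1.0 to -0.70, staying short of 2-fold, and Ifit3 from -0.79 to -0.57 over the reported scaling and 7 alternatives, and Ifih1 ranged from 0.43 to 0.75 and Ifitm3 from 0.48 to 0.69. Across all 8 of these, 12 members stayed lower in the knockout, 11 stayed higher and 9 changed sign in at least 1. Those 9 were Ddx58, Eif2ak2, Ifi35, Oas2, Oasl2, Parp9, Parp12, Rsad2 and Usp18. Kept signs were not counted over all genes, so these counts have no share to be read beside. Several of the lower values came close to 0 with normexp, with Isg15 at -0.07, Isg20 at -0.11, Rtp4 at -0.10, Oasl1 at -0.16 and Adar at -0.01. With median centring Adar had -0.04 and Zbp1 had -0.02. No member passed 2-fold in any of them. With each array centred on its median, 62.5% of the members and 67.2% of all genes were higher in the knockout, against 43.8% and 50.4% with the reported scaling. That centring moved the median of all genes to 0.19 and that of the members to 0.11, 0.08 below it.

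**Figure D5:**
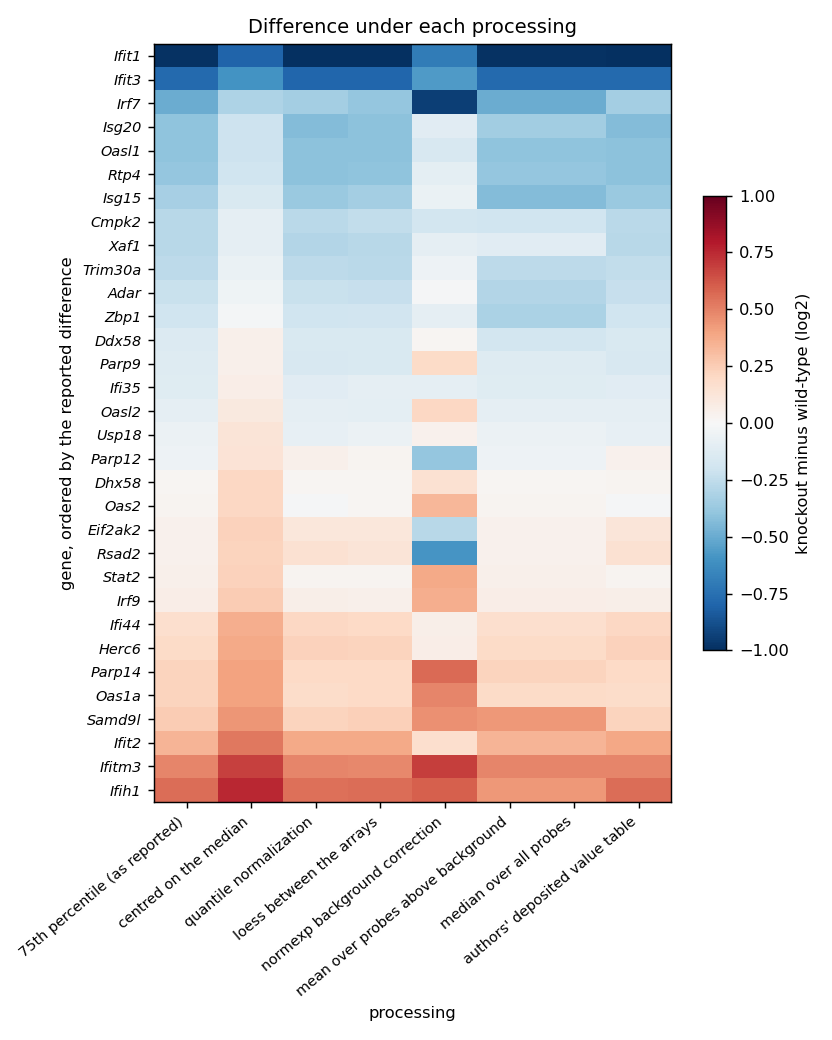
Difference (knockout minus wild-type, log2, colour) of the 32 measured genes in rows, ordered by the reported difference, under the reported scaling and 7 alternatives in columns. Blue at the top (Ifit1, Ifit3) and red at the bottom (Ifih1, Ifitm3) run through all columns, and the normexp column departs most in the middle rows.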

How the data were processed

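Gene expression was measured on 1 Agilent 1-colour array per genotype. Scanner files came from Feature Extraction (Agilent), version 11.0.1.1 per the submitters' processing notes. The deposited processed signal is an intensity with background subtracted within the array, per the file headers. The deposited value table holds log2 values with equal column medians, and how they were normalized or centred is not stated in any source at hand. Both arrays lie on the same slide and scan, per the file headers.

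Control spots and outlier spots (138 on the knockout array and 228 on the wild-type array, of 43020 gene spots) were left out, which left 39411 of 39429 probes, and no gene spot was saturated. Log2 signals were averaged over spots of a probe and set against the array's 75th percentile. Through unversioned accessions of the RefSeq table of GRCm38.p6, 27220 probes matched a gene. The file headers name another build, so only the promoter table's coordinates are printed. A member was represented by its brightest probe, and called at 2-fold if well above background on both arrays. The number of arrays limits the precision. The functions were tested on simulated data.

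The members and gene lists were chosen with earlier results of these data known. All members are named, and from the other lists the genes with the largest differences, a fixed core of the receptor pathway, of which 1 gene is not reported here, and the brightest cell markers. Ifna5, Ifnb1, Ifit3b, Cd3e, Cd3g, Cpa3, Fcer1a, Kit, Irf4, Spi1 and a few others named beside these were chosen after their values were seen. Alternatives were other scalings, normexp with an offset of 50, other probe rules, filters, a 1.5-fold limit and the authors' table. Normexp used median pixel intensities. Python 3.11.15, pandas 2.3.3, numpy 2.4.6, matplotlib 3.10.9, R 4.3.3 and limma 3.58.1 were used.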

Additional observations from a re-analysis of the deposited data

How the results depend on the processing

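No paired analysis was possible because each genotype has 1 array. Leaving out a replicate was not possible for the same reason. The count of members past 2-fold was 0 under every scaling, background correction, probe rule and filter tried and in the authors' deposited value table, and 2 with a 1.5-fold limit. The median difference of the members was between -0.13 and -0.06 except with median centring (0.11) and normexp (0.01). Median centring moved the median of all genes to 0.19, and those of the upstream genes and of the other interferon-stimulated genes to 0.19 each. With normexp the upstream genes had a median of 0.15, the other interferon-stimulated genes one of 0.23, and all genes had -0.06. With this correction 20 of 32 members moved by more than their scanner error, the cause of which was not tested. No such count was made over all genes, so this is not read as a trait of the members. Dim probes limit Irf7, Rsad2, Parp12 and Eif2ak2, which normexp gave as -0.94, -0.59, -0.39 and -0.28. Relative to all genes the members' median was 0.02 to 0.12 lower in all but normexp, where it was 0.07 higher.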

Other observations

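Several members lie next to another interferon-induced gene in the RefSeq gene order, and neighbours did not always share a direction. Dtx3l, the ubiquitin ligase that pairs with PARP9, lies between Parp14 and Parp9 on chromosome 16, and gave 1490 in the knockout culture and 2650 in the wild-type culture (-0.77), while Parp9 had -0.13 and Parp14 had 0.22. On chromosome 7, Ifitm1 gave 2750 in the knockout culture and 2660 in the wild-type culture (0.11), beside 0.49 for its neighbour Ifitm3. On chromosome 3, Ifi44l stayed at background level, at 2.18 in the knockout culture and 5.84 in the wild-type culture, beside Ifi44, which was measured on both. These are single measurements with no replicate, and the neighbours were chosen after their values were seen.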
